A study of Mus musculus with 32 samples.

Results

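The comparison described here sets embryonic stem cells (ESCs) that renewed themselves without inhibitors of MEK or GSK3 and without LIF against parental ESCs kept in both inhibitors. It is defined by genotype and medium and not by a measured value, and takes 6 of the 32 libraries of the series. Earlier results of these data were known when it was chosen. ETR-tKO cells, in which *Etv5*, *Rbpj* and *Tcf7l1* were all targeted, had been passaged 5 times in N2B27, a serum-free basal medium (ETR-tKO N-p5, n = 3, libraries 13, 14 and 15). RGd2 cells had been passaged 5 times in 2i (RGd2 2i-p5, n = 3, libraries 1, 2 and 3). 2i is N2B27 with the MEK inhibitor PD0325901 at 1 µM and the GSK3 inhibitor CHIR99021 (CH) at 3 µM. All 32 libraries come from RGd2, a mouse ESC line that reports expression of *Zfp42* (Rex1) through destabilised GFP.

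The ETR-tKO libraries are separate clones, named (ETc1)Rc53, (Tc1)ERc2 and (Tc1)ERc10 in the sample labels, and the last 2 share the prefix Tc1. The sources used here do not say what the prefix stands for, and libraries 14 and 15 may therefore not be fully independent replicates. RGd2 libraries 1 and 2 are labelled as the parental line and library 3 as a clonal derivative. The mutant lines had been expanded in CH with LIF before they were moved to N2B27. The label Tcf3 in the study stands for *Tcf7l1*, not for the E2A gene whose symbol is *Tcf3*. Genotype and medium changed together between the groups, so that their contributions cannot be told apart. No source says that RGd2 libraries 1 and 2 came from separate cultures, and the spread between these samples may be technical. The p-values come from a model fitted to all libraries of the series, and therefore also draw on the spread within its other groups.

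Naive ESCs represent the epiblast of the preimplantation embryo. FGF4 made by the cells themselves activates ERK signalling, which drives them out of the naive state, and MEK inhibition blocks that step. GSK3 inhibition stabilises β-catenin, which relieves repression by TCF7L1 and also activates Wnt target genes together with other TCF/LEF factors. LIF acts in parallel through JAK and STAT3. ETV5 is an ETS factor induced by ERK, RBPJ is the DNA-binding partner of the Notch intracellular domain and a repressor in its absence, and TCF7L1 represses genes of the naive network.

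The pairs of guide RNAs used to disrupt the 3 genes are shown because their positions decide which exons can still be counted in the mutant RNA. All 6 protospacers were matched to Gencode M21 transcripts on GRCm38 and lay in coding sequence. In the sequences below the 20 bases of the protospacer are in lower case and the PAM is in capitals.
*Etv5*, exon 8 of 13, chr16:22401804-22401823, minus strand: cgcagctccgccaccccttcAGG
*Etv5*, exon 9 of 13, chr16:22399336-22399355, plus strand: gaaatacccgcctctcatgtAGG
*Rbpj*, exon 5 of 11, chr5:53645980-53645999, minus strand: tgacctttatccgcttgctgAGG
*Rbpj*, exon 7 of 11, chr5:53649718-53649737, minus strand: gcttgacagtctgcccgtaaTGG
*Tcf7l1*, exon 1 of 12, chr6:72788844-72788863, plus strand: tcagctcgtcgttcgctccgAGG
*Tcf7l1*, exon 3 of 12, chr6:72788228-72788247, plus strand: gagacaggggtccgttggagAGG
From the outer edge of one guide to that of the other, the pairs spanned 2488 bases at *Etv5*, 3758 bases at *Rbpj* and 636 bases at *Tcf7l1*. Gene counts sum over all exons of a gene, and therefore reads from exons outside these spans are still counted.

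All 3 targeted genes were downregulated in ETR-tKO, to different extents. Spike-in normalised counts of *Etv5* were 10670, 11870 and 10340 in 2i and 2547, 1112 and 1843 in ETR-tKO (values are given in library order throughout), with a log2 fold change of −2.58, SE 0.16, adjusted p = 1.29e-16. *Tcf7l1* gave 495, 592 and 463 in 2i and 29.1, 120.4 and 107 in ETR-tKO, with a log2 fold change of −2.66, SE 0.25, adjusted p = 1.65e-11. *Rbpj* gave 2830, 3385 and 2853 in 2i and 1559, 2281 and 2348 in ETR-tKO, with a log2 fold change of −0.55, SE 0.205, adjusted p = 0.0297. For each gene every ETR-tKO library lay below every 2i library, but *Rbpj* RNA was reduced least and its call was lost without library 13 (log2 fold change −0.39, adjusted p = 0.17), without library 2 (log2 fold change −0.46, adjusted p = 0.116) and in DESeq2 (adjusted p = 0.0866). Counts over the whole gene thus fell clearly for *Etv5* and *Tcf7l1*, but they do not verify the labels. Genotype and medium changed together, and reads between the guides were not counted separately, so the part of the targeting in these falls was not tested. For *Rbpj* the remaining RNA says little about the deleted exons.

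The relatives of the targeted genes moved in opposite ways. The related ETS genes *Etv4* and *Etv1* rose: *Etv4* gave 18.9, 30.2 and 26.7 in 2i and 5488, 5586 and 5396 in ETR-tKO (log2 fold change of 7.701, SE 0.18, adjusted p = 3.38e-30), and *Etv1* gave 146, 191 and 148 and 1393, 1666 and 1718 (log2 fold change of 3.29, SE 0.15, adjusted p = 1.15e-20). Of the TCF/LEF factors, *Lef1* fell from 1388, 1137 and 1094 to 95.3, 44.1 and 53.3 (log2 fold change of −4.17, SE 0.21, adjusted p = 1.98e-19) and *Tcf7* fell less, from 615, 701 and 608 to 535, 393 and 418 (log2 fold change of −0.51, SE 0.14, adjusted p = 0.00252). *Tcf7l2* was under the expression limit of 1 FPKM in both groups and gave no call, with a log2 fold change of 1.76 (adjusted p = 1.20e-06). The corepressor genes *Tle1*, *Tle3* and *Tle4* rose, and *Tle4* went from 3016, 3381 and 2988 to 5931, 6778 and 6578. Of the 13 TCF/LEF factors and cofactors tested, 3 rose and 4 fell, the targeted *Tcf7l1* included.

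**Figure D1:**
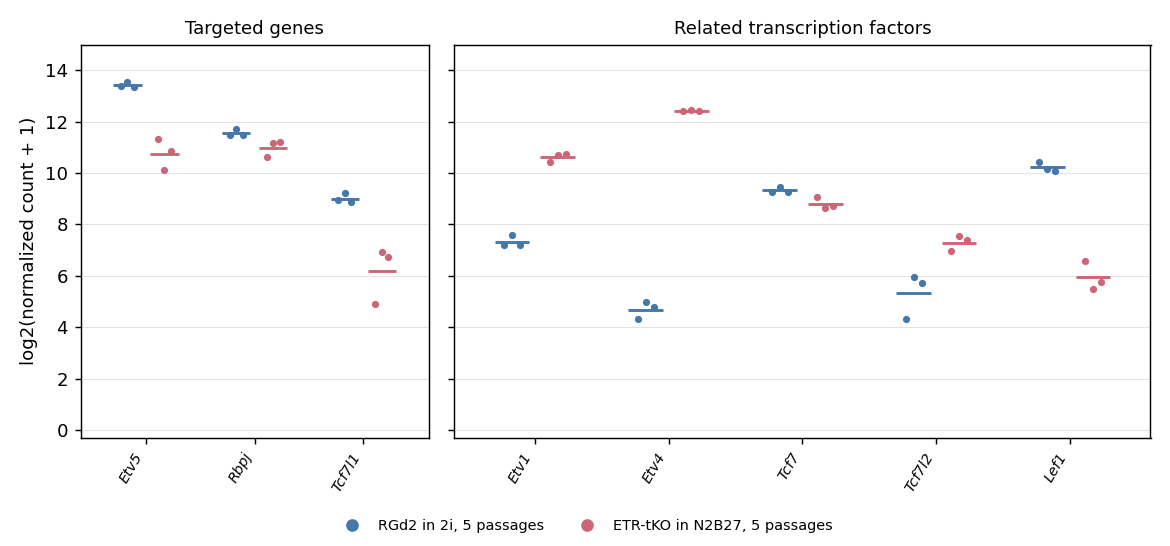
Spike-in normalised counts of the targeted genes and their relatives, as log2 of the count plus 1, for RGd2 2i-p5 and ETR-tKO N-p5, with 1 point per library and a line at the mean of the log values. *Etv5* and *Tcf7l1* fall well below their 2i level in each of the 3 clones and *Rbpj* only slightly, while *Etv4* rises to at least 5396.

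Across the transcriptome, 18892 genes entered the test. A gene was called at an adjusted p under 0.05 (edgeR's quasi-likelihood test, two-sided, Benjamini-Hochberg) with a mean of at least 1 FPKM in either group. ETR-tKO showed 4459 genes upregulated, 23.6% of those tested, and 1126 downregulated, 5.96%. A fold change of at least 2 was reached by 1207 of the upregulated and 352 of the downregulated genes, and one of at least 4 by 364 and 109. The groups did not overlap in 5300 of the 5585 called genes, where 50.6% of all genes tested did not overlap.

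The split between higher and lower calls depended on the scale. The median log2 fold change of all genes tested was 0.27 with spike-in size factors and 0.06 with TMM, a shift of −0.21, and the share of higher calls among all calls was 79.8% with spike-ins and 51.9% with TMM (2995 higher, 2773 lower). All 2995 genes that TMM called higher were also higher with spike-ins, and the 1126 genes lower with spike-ins were also lower with TMM. Changes near 0.27 on the spike-in scale are therefore changes of the average gene. List medians are given below also as their distance from that value, and a named gene called on only one of the scales is marked as such. A lower count said below to hold on both scales always equals the spike-in count, and it leaves out genes that TMM alone called lower. Counts per list are to be read against the 23.6% of all genes tested that rose and the 5.96% that fell with spike-ins. A rise or fall given as a bare number is a log2 fold change with spike-in size factors.

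Total counts over genes ran from 9255795 to 22213048 in 2i and from 25842406 to 41560347 in ETR-tKO, so that low counts were known less precisely in 2i. Spike-ins took 1.47% ± 0.0637 of all counts in 2i and 1.25% ± 0.0545 in ETR-tKO (SD, n = 3 each), and the mitochondrial rRNA genes took 12.9% ± 0.829 and 15.9% ± 0.969. Their part in the shift between the scales was not tested. A smaller population of cells and less RNA per cell cannot be told apart in bulk libraries. Intervals and limits from counts cover counting error only.

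**Figure D2:**
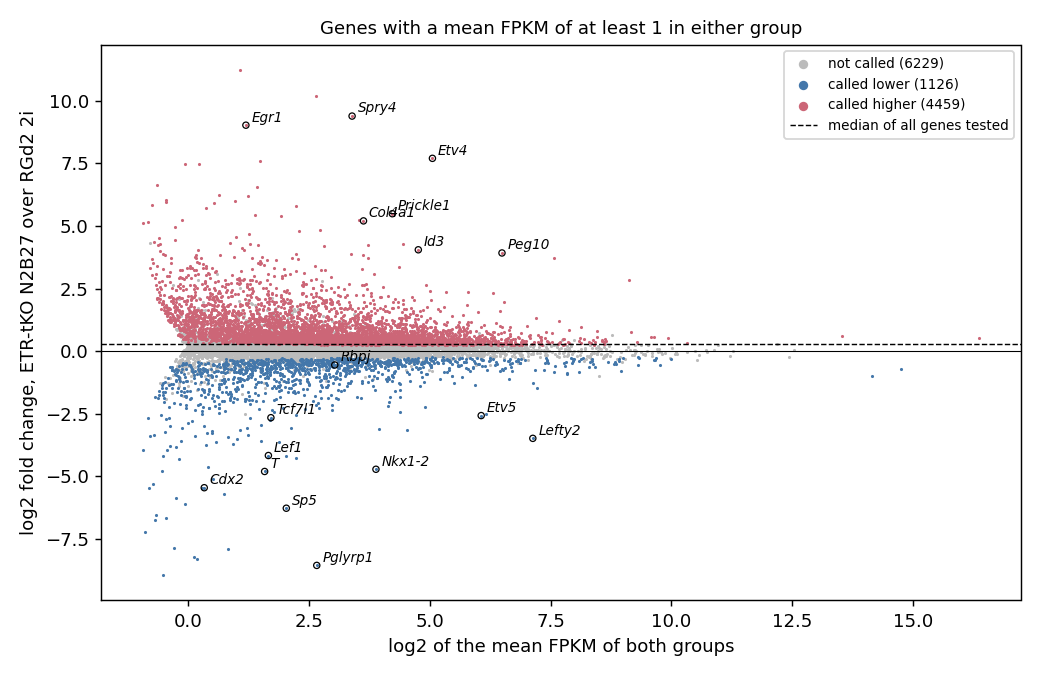
Log2 fold change of ETR-tKO N-p5 over RGd2 2i-p5 against log2 of the mean FPKM of both groups, 1 point per gene with at least 1 FPKM in either group, with called genes in colour, 17 genes named and the median of all genes tested as a dashed line. More called genes lie above 0 (4459) than below (1126), and the dashed line is at 0.27.

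**Figure D3:**
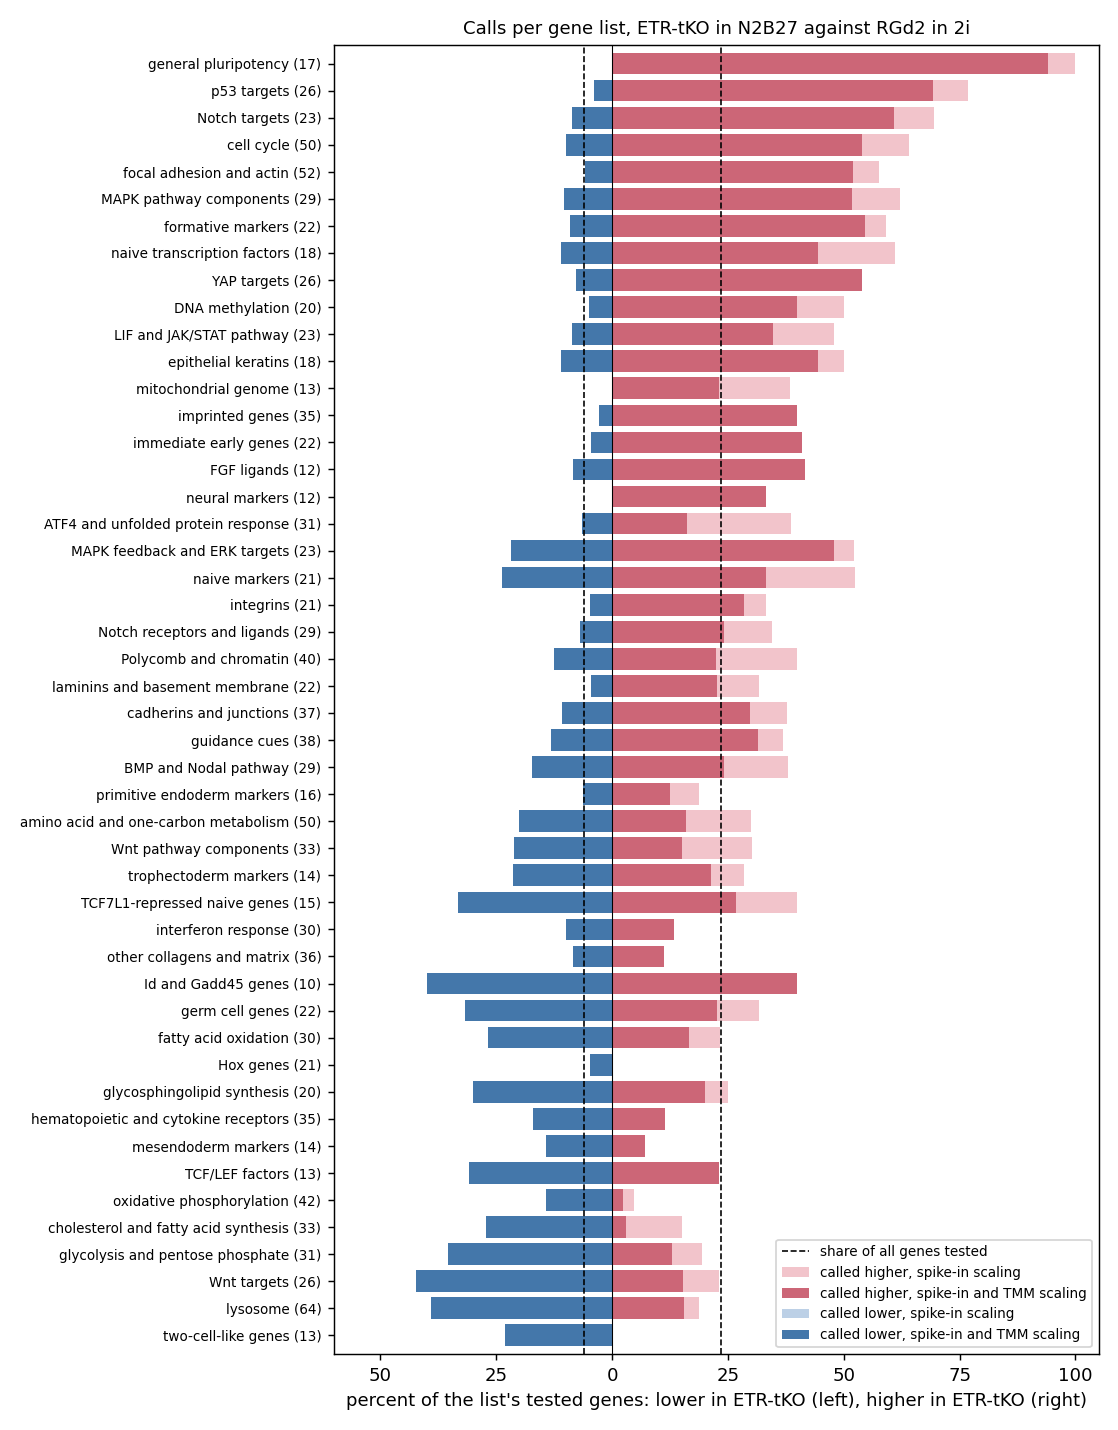
Percent of the tested members of each gene list called lower (left) or higher (right) in ETR-tKO, dark where called with both spike-in and TMM scaling and pale with spike-ins alone, with the number tested in brackets and dashed lines at the shares of all genes tested (23.6% and 5.96%). General pluripotency genes rose in 17 of 17 cases, whereas lysosomal genes and Wnt targets fell more often than they rose.

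As among all called genes, of which 79.8% were higher with spike-ins, most calls in the naive transcription factor network were higher in ETR-tKO. Of 18 tested, 11 rose and 2 fell (8 and 2 on both scales, 8 and 4 with TMM). The median log2 fold change was 0.38, 0.11 above that of all genes. *Nanog* gave 16240, 18110 and 16160 in 2i and 20710, 21970 and 21590 in ETR-tKO (log2 fold change of 0.35, SE 0.103, adjusted p = 0.00641), without overlap between the groups, but was not called with TMM. The same held for *Pou5f1*, the Oct4 gene, with a log2 fold change of 0.35 ± 0.09 (SE). *Klf4* rose most, from 900.2, 979.5 and 718 to 2276, 3034 and 2900 (log2 fold change of 1.66, SE 0.13, adjusted p = 2.70e-13). *Gbx2*, *Tcl1*, *Zfp57*, *Sox2* and *Klf5* also rose, with log2 fold changes from 0.57 to 1.44, and *Gbx2* went from 94.3, 104 and 116 to 202, 346 and 323. The reporter gene's host *Zfp42* rose by 0.41 ± 0.11, to 7773, 10040 and 9781 in the 3 clones.

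Other members of that network gave no call. *Esrrb*, whose product sustains naive self-renewal downstream of GSK3 inhibition, gave 14200, 15650 and 13790 in 2i and 13060, 17990 and 16540 in ETR-tKO (log2 fold change 0.12, SE 0.11). *Tfcp2l1* gave 16550, 18430 and 18000 and 12820, 19600 and 18200 (log2 fold change −0.07), and was called lower with TMM (−0.29, adjusted p = 0.0158). *Klf2* gave 1784, 2083 and 1925 and 1939, 1764 and 1860. The groups overlapped for each of these. *Prdm14*, which represses FGF receptor and DNA methyltransferase genes, fell from 841, 809 and 875 to 598, 562 and 510.3 (log2 fold change of −0.59, SE 0.13, adjusted p = 2.28e-04). On the list of genes reported to be repressed by TCF7L1, 15 tested, 6 rose and 5 fell, and those that fell were *Lefty1*, *Lefty2*, *Sp5*, *Cdx1* and *Tcf7*.

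Among 21 further naive markers 11 rose and 5 fell (7 and 5 on both scales, 7 and 6 with TMM). *Lifr*, *Ooep*, *Dppa2*, *Manba* and *Fgf4* rose, with log2 fold changes of 1.35, 1.23, 0.78, 0.96 and 0.67. *Alpl*, the tissue-nonspecific alkaline phosphatase whose activity marks ESC colonies, fell from 8677, 8558 and 8057 to 2195, 3825 and 3870 (log2 fold change of −1.36, SE 0.13, adjusted p = 5.76e-11). *Dppa3* (Stella) gave 172, 183 and 149 in 2i and 56.5, 7.52 and 15.1 in ETR-tKO (log2 fold change of −2.57, SE 0.43, adjusted p = 5.62e-06), and its low counts in clones 14 and 15 set it apart from the rest of the list. *Tdh*, the threonine dehydrogenase of mouse ESCs, fell by 0.84 and *Pecam1* fell by 0.77 on the log2 scale.

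Genes expressed in naive and primed pluripotency alike rose together: 17 of 17 tested were called higher, 16 of them on both scales, with a median log2 fold change of 0.74, 0.47 above that of all genes. *Utf1* went from 1280, 1494 and 1293 to 4093, 4008 and 4347 (log2 fold change of 1.61, SE 0.17, adjusted p = 3.21e-10). *Mycn* rose from 2844, 3032 and 2648 to 6234, 6441 and 6593 (log2 fold change of 1.18, SE 0.13, adjusted p = 6.79e-10). *Zscan10*, *Sall1* and *Zfp281* had log2 fold changes of 0.86, 0.85 and 0.63.

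Formative genes, which are induced as ESCs leave the naive state, were partly upregulated in ETR-tKO. Of 22 tested 13 rose and 2 fell (12 and 2 on both scales), with a median log2 fold change of 1.36, 1.09 above that of all genes. *Otx2*, a driver of the transition, gave 328, 377 and 374 in 2i and 1235, 1083 and 1213 in ETR-tKO (log2 fold change of 1.703, SE 0.13, adjusted p = 3.18e-14). *Pou3f1* (Oct6) gave 7.07, 7.89 and 7.2 and 258, 93.5 and 127 (log2 fold change of 4.44, SE 0.41, adjusted p = 1.35e-11). *Fgf15* rose from 11.8, 25 and 15.4 to 193, 156 and 198, *Grhl2* from 108, 139 and 67.8 to 809, 648 and 645 and *Tcf15* from 84.8, 119.6 and 61.7 to 521, 649 and 529. *Fgf5* stayed under 1 FPKM in both groups, with 78.3, 57 and 56.5 normalised counts in ETR-tKO. The groups did not overlap for any of these 6 genes. *Lef1*, which the paper also counts as a formative marker, went the other way, with a log2 fold change of −4.17.

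These formative levels can be placed between RGd2 cultures that were leaving 2i. Summed over the 22 genes, 2i libraries held 124 to 140.4 FPKM and ETR-tKO libraries 265 to 326 FPKM, against 389.6 to 452 FPKM after 16 h in N2B27 (N16h) and 848 to 865 FPKM after 72 h (N72h). The mean of *Pou3f1* was 159 in ETR-tKO, 633 at N16h and 1615 at N72h. *Otx2* averaged 1177, 2275 and 2661 in the same order.

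**Figure D4:**
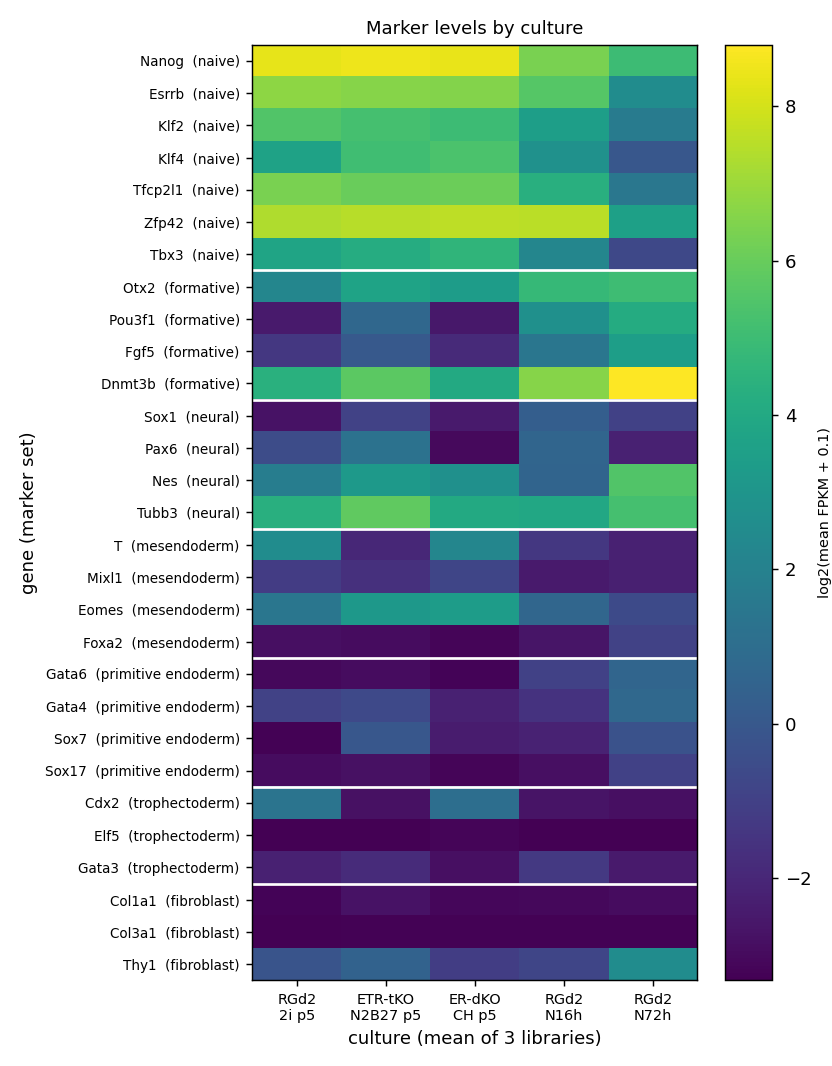
Colour map of log2(mean FPKM + 0.1), the length-normalised level, for marker genes of the naive and formative states and of other cell types, 1 row per gene, in RGd2 2i-p5, ETR-tKO N-p5, ER-dKO CH-p5, RGd2 N16h and RGd2 N72h. Of the 7 naive genes *Klf4* differs most between 2i and ETR-tKO (log2 fold change 1.66), and *Otx2* and *Pou3f1* lie between 2i and N16h.

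Some genes that report ERK activity, such as *Spry4* and *Egr1*, were among those that rose most in ETR-tKO. Sprouty, Spred and Dusp proteins are induced by ERK and dampen the pathway. *Spry4* gave 4.71, 6.57 and 1.03 in 2i and 2601, 2594 and 2515 in ETR-tKO (log2 fold change of 9.39, SE 0.24, adjusted p = 1.07e-28). *Dusp6*, a phosphatase of ERK, gave 156, 208 and 183 and 1835, 1828 and 1762 (log2 fold change of 3.29, SE 0.14, adjusted p = 1.13e-21), and *Dusp4* gave 266, 210.4 and 314 and 3509, 2184 and 2356 (log2 fold change of 3.34, SE 0.17, adjusted p = 3.07e-19). *Spred1*, *Spred3*, *Spry2* and *Epha4* rose with log2 fold changes of 1.82, 3.06, 2.22 and 1.53. No 2i library came near an ETR-tKO library for any of these 7 genes. Of 23 feedback and ERK target genes, 12 rose and 5 fell (11 and 5 on both scales), against 23.6% and 5.96% of all genes tested. The targeted *Etv5* was one that fell, and the others are not named here. *Spry1* gave 160.2, 176 and 149 and 151, 149 and 136, and *Dusp1* gave 632, 636 and 682 and 656, 816 and 730, neither with a call.

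Immediate early genes, the first to be transcribed after ERK activation, rose in 9 cases and fell in 1 of 22 tested (9 and 4 with TMM). *Egr1* was at 2.36, 1.31 and 0 in 2i, where the 3 libraries held 2 reads in all, and at 676, 446 and 507 in ETR-tKO, a ratio of 609 (95% counting interval 168 to 5034). *Fos* gave 16.5, 9.2 and 11.3 and 131, 125 and 96.3 (log2 fold change of 3.303, SE 0.41, adjusted p = 1.80e-08), and *Junb* gave 28.3, 36.8 and 25.7 and 141, 120.4 and 133 (log2 fold change of 2.12, SE 0.29, adjusted p = 1.55e-07). *Ier5* fell by 1.12 on the log2 scale, and *Ier2* was lower with TMM only. *Egr1* stood at 10.4 at N16h and 228 at N72h, below its mean of 543 in ETR-tKO.

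The receptors and kinases upstream were also mostly higher. Of 29 MAPK pathway components 18 rose and 3 fell (15 and 3 on both scales). *Eras*, a constitutively active Ras of ESCs, gave 58.9, 69.7 and 53.5 in 2i and 1276, 1093 and 1194 in ETR-tKO (log2 fold change of 4.29, SE 0.17, adjusted p = 7.20e-23), *Egfr* gave 139, 154 and 90.5 and 807, 1372 and 1263 (log2 fold change of 3.19, SE 0.201, adjusted p = 3.99e-16), and *Rasgrp2* gave 177, 145 and 129.5 and 2087, 1571 and 1439 (log2 fold change of 3.53, SE 0.16, adjusted p = 6.16e-21). *Fgfr1*, the main FGF receptor of ESCs, rose by 0.96 ± 0.12, while *Rasgrp1* fell by 1.99 and *Ksr1*, a scaffold of the cascade, fell by 0.897. Of the FGF ligands *Fgf4*, which the cells themselves use, rose from 3075, 3693 and 2966 to 4577, 5486 and 5415, and *Fgf1* rose from 23.6, 21 and 21.6 to 135, 257 and 276. In all 5 of 12 genes for FGF ligands and their carriers rose and 1 fell.

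Wnt target genes fell more often than they rose in ETR-tKO, which grew without the GSK3 inhibitor. Of 26 tested 11 fell and 6 rose (11 and 4 on both scales), with a median log2 fold change of −0.43, a distance of −0.699 from that of all genes. *Axin2*, the negative feedback gene of the pathway, gave 2201, 2344 and 2345 in 2i and 505, 729.7 and 682 in ETR-tKO (log2 fold change of −1.85, SE 0.14, adjusted p = 5.54e-14). *Sp5* gave 386, 376 and 399 and 9.11, 4.3 and 0 (log2 fold change of −6.28, SE 0.41, adjusted p = 3.17e-15), *T* (Brachyury) gave 354, 292 and 274 and 17, 2.15 and 9.55 (log2 fold change of −4.81, SE 0.303, adjusted p = 3.69e-16), and *Sp8* gave 191, 175 and 155 and 9.71, 9.67 and 6.37 (log2 fold change of −4.31, SE 0.29, adjusted p = 2.01e-15). For these 4 genes each ETR-tKO library lay far below each 2i library. *Nkx1-2*, *Cdx1* and *Cdx2* had log2 fold changes of −4.72, −3.08 and −5.46. *Notum*, a secreted inhibitor of Wnt ligands, and *Tnfrsf19* fell less, with log2 fold changes of −1.28 and −1.11. Of the 6 that rose *Prickle1* went from 101, 102 and 81.2 to 4929, 3757 and 3946 (log2 fold change of 5.49, SE 0.196, adjusted p = 8.66e-24), and *Wnt8a* also rose, from 42.4, 25 and 21.6 to 304, 139.7 and 136.

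The promoters of *Sp5* and *T* are shown as examples of Wnt targets that lost nearly all of their RNA. Each sequence is the 250 bases upstream of a RefSeq transcript start on GRCm38.p6, with matches to the TCF core motif CTTTGA, on either strand, in capitals.
*Sp5*, chr2:70474673-70474922, plus strand: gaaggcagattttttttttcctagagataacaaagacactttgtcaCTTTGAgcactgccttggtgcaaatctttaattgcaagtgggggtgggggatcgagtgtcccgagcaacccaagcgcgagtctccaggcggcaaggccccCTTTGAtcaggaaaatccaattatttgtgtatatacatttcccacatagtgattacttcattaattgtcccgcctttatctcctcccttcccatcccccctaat
*T*, chr17:8434173-8434422, plus strand: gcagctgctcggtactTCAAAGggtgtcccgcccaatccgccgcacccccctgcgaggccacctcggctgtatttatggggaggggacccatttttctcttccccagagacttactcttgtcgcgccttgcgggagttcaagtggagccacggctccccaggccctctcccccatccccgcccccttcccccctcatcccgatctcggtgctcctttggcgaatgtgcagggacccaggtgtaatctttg
*Sp5* held 2 matches, the nearer 104 bases before the start, and *T* held 1, 234 bases before it. *Sp8*, which also lost nearly all of its RNA, is not shown. Its window at chr12:118846983-118847232 held 1 match, and those at chr12:118846079-118846328 and chr12:118847309-118847558 held 0. The motif was found upstream of 7 of the 17 Wnt targets with a promoter entry (41.2%, *Dkk1*, *Lef1*, *Sp5*, *Sp8*, *T*, *Tnfrsf19* and *Zbed3*), against 15.8% of all 27025 genes and 13.8% of all 32851 promoters of the same length. Of these 7, *Zbed3* rose (log2 fold change 0.59), *Dkk1* was not called (0.07) and the others fell. *Axin2*, *Cdx1*, *Cdx2*, *Nkx1-2* and *Notum* fell but are not among the 7, for lack of a match or of a promoter entry. The RBPJ core TGGGAA, which does not overlap the TCF motif, was found for 5 of 19 Notch list genes (26.3%), against 24.1% of genes and 21.6% of promoters. A match to 6 letters is a description of the window and not evidence of binding.

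The Wnt pathway's own components gave 10 higher and 7 lower calls among 33 tested, of which 5 and 7 held on both scales. TMM gave 5 higher and 10 lower. *Porcn*, needed to secrete Wnt ligands, rose by 1.39 ± 0.13, whereas *Wls*, the ligands' carrier, fell by 1.86 ± 0.35. The receptor genes split, with *Fzd7* going from 1699, 1658 and 1633 to 2841, 3903 and 3725 and *Fzd10* from 1833, 1927 and 1841 to 694, 899.5 and 868. *Wnt6* rose from 2.36, 6.57 and 2.06 to 55.8, 73.1 and 87.6 and *Dkk3* from 30.6, 38.1 and 19.5 to 128, 203 and 151.

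Genes on the Notch target list rose in 16 cases and fell in 2 of 23 tested (14 and 2 on both scales, 14 and 3 with TMM). The median log2 fold change was 1.08, 0.81 above that of all genes. The list was chosen with earlier results of these data known, and its members *Hes5*, *Hes7* and *Heyl* did not enter the test. RBPJ can repress Notch target genes when no Notch signal is present, but its part in these rises was not tested. *Nrarp*, a feedback inhibitor of Notch, gave 47.1, 63.1 and 62.7 in 2i and 498, 455 and 511 in ETR-tKO (log2 fold change of 3.05, SE 0.21, adjusted p = 4.10e-15). *Hey1*, a classical effector, gave 163, 178 and 232 and 311, 437 and 481 (log2 fold change of 1.08, SE 0.18, adjusted p = 5.86e-06). *Nrp2*, *Cidea* and *Trh* rose by 2.97, 3.87 and 2.84, and *Nrp2* went from 568, 542 and 538 to 3475, 4890 and 4552. The log2 fold changes of *Cd63* and *Gadd45g*, which fell, were −1.64 and −1.78. *Hey2* was under 1 FPKM in both groups and so not called, with a log2 fold change of 2.75 (adjusted p = 8.48e-06). Some members are shared with other lists, among them *Prickle1*, *Myc* and *Ccnd1* with the Wnt targets.

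The Id genes, inhibitors of basic helix-loop-helix factors and known targets of BMP signalling, were on the same list. *Id3* gave 165, 179 and 104 in 2i and 2621, 2419 and 2219 in ETR-tKO (log2 fold change of 4.05, SE 0.17, adjusted p = 1.88e-21), and *Id1* gave 2.36, 19.7 and 27.8 and 339, 188 and 229 (log2 fold change of 3.71, SE 0.34, adjusted p = 8.54e-12). Both were far above their 2i range in all 3 clones. *Id2* was under the FPKM limit and so not called, with a log2 fold change of 1.995 (adjusted p = 1.25e-05). *Id4* was not called with spike-ins but was lower with TMM. *Gadd45a* rose from 335, 377 and 331 to 1203, 1498 and 1424 and *Gadd45g* fell from 35.4, 40.8 and 48.3 to 23.7, 4.3 and 4.78. The E-protein genes moved apart, *Tcf12* rising by 1.29 while *Tcf3* (E2A) and *Tcf4* had log2 fold changes of −0.45 and −0.47. Among Notch receptors and ligands 10 of 29 rose and 2 fell (7 and 2 on both scales, 7 and 6 with TMM). *Notch1*, *Notch3*, *Jag1* and *Spen* rose by 0.95, 1.09, 1.05 and 1.26 and *Notch2* fell (log2 fold change −0.44).

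**Figure D5:**
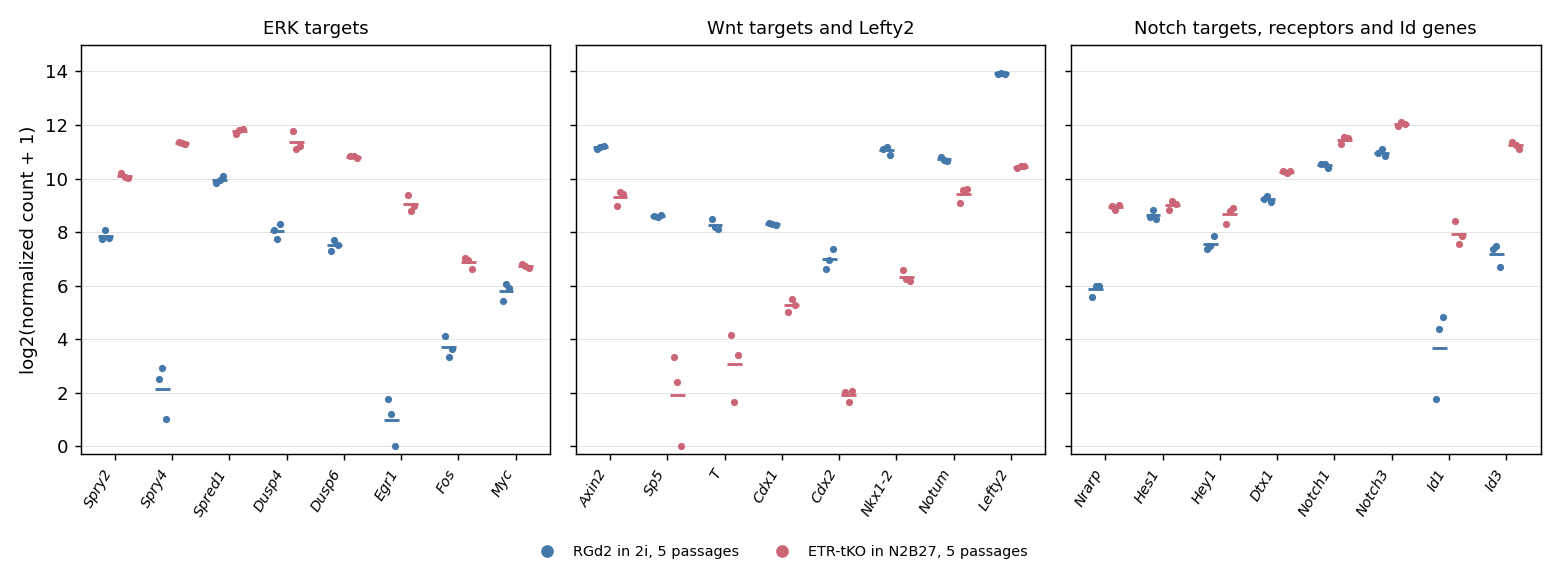
Spike-in normalised counts of ERK targets, of Wnt targets and *Lefty2*, and of Notch list and Id genes, as log2 of the count plus 1, with 1 point per library and a line at the mean of the log values. The ERK targets *Spry4* and *Dusp6* and the Notch list gene *Nrarp* lie higher in the 3 ETR-tKO libraries than in the 3 of 2i, and *Axin2*, *Sp5* and *Lefty2* lie lower.

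*Lefty1* and *Lefty2* encode inhibitors of Nodal and are themselves induced by Nodal and by β-catenin. *Lefty2* gave 15430, 15870 and 15310 in 2i and 1346, 1413 and 1407 in ETR-tKO (log2 fold change of −3.48, SE 0.18, adjusted p = 2.01e-18), and *Lefty1* gave 4942, 5254 and 4780 and 846, 902 and 849 (log2 fold change of −2.53, SE 0.16, adjusted p = 7.35e-16). Both fell within a narrow range over the 3 clones. *Nodal* itself gave 2406, 2657 and 2337 and 2543, 2743 and 2763 and was not called, and its coreceptor gene *Tdgf1* rose from 3862, 4291 and 3526 to 6281, 8635 and 8609. *Bmp7* fell by 2.45, while *Fst*, a binder of activin, rose by 2.37. Of 29 BMP and Nodal pathway genes tested, 11 rose and 5 fell (7 and 5 on both scales, 7 and 8 with TMM).

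No LIF was present in either medium. Of 23 genes of the LIF and JAK/STAT pathway, 11 rose and 2 fell (8 and 2 on both scales). The receptor gene *Lifr* went from 2288, 2664 and 2251 to 5616, 6361 and 6452 (log2 fold change of 1.35, SE 0.12, adjusted p = 5.28e-12). *Socs3*, a feedback inhibitor that STAT3 induces, went from 11.8, 2.63 and 7.2 to 90.4, 109.6 and 98.7 (log2 fold change of 3.899, SE 0.41, adjusted p = 2.93e-10), and *Socs2* from 1232, 1705 and 1616 to 2635, 2827 and 2945. Neither *Stat3* nor the shared receptor gene *Il6st* was called, with *Stat3* at 825, 809 and 799.7 and 785, 1033 and 1017.

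By size of change the upregulated genes were led by *Slc18a3*, the vesicular acetylcholine transporter, with no read in any 2i library and 276, 273 and 263 in ETR-tKO, at least 57.6-fold higher than a floor of 3 counts per 2i library allows. *Spry4*, *Egr1* and *Etv4*, described above, came next. *Atp1a4*, the sperm form of the sodium pump, had 2 reads in 2i, at 4.71, 0 and 0, and gave 146, 207 and 205 in ETR-tKO (ratio 194, 95% counting interval 53.6 to 1609). *Pcsk1n*, a neuroendocrine inhibitor of proprotein convertase, gave 0, 5.26 and 3.08 and 259.8, 313 and 361. *Nell2*, *Usp26*, *Efhc2*, *Tnfsf11* and *Prickle1* completed the largest rises that held without each library, with log2 fold changes from 5.49 to 6.05. *Slc18a3* averaged 8.99 at N72h and 13 in ER-dKO, cells with *Etv5* and *Rbpj* targeted that were kept in CH.

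Among the downregulated genes *Pglyrp1*, a peptidoglycan-binding protein of innate immunity, fell from 478, 518 and 591 to 2.43, 0 and 0.796 (log2 fold change of −8.56, SE 0.41, adjusted p = 5.65e-20). *Lipc*, hepatic lipase, gave 116, 130.2 and 109 and 4.86, 0 and 1.59, and *Trpm1*, a cation channel, gave 382, 421 and 397 and 7.28, 18.3 and 7.16. Of the 12 genes with the largest losses 6 were *Zscan4* genes, markers of the rare 2-cell-like state of ESC cultures. *Zscan4c* gave 132, 110.4 and 95.6 in 2i and 0, 0 and 0.796 in ETR-tKO, with 1 read in all 3 clones together, and *Zscan4e* gave 73, 48.6 and 47.3 and no read in any clone, at least 22.7-fold lower than in 2i against a floor of 3 counts per library. The genes of this cluster are nearly identical, and reads can be shared between them, so the values of single copies are uncertain. *Zscan4c* was also nearly absent from ER-dKO (mean 0.125) and was 289 at N16h. The list of 13 2-cell-like genes tested gave 3 lower calls, all of *Zscan4* genes.

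Markers of other cell types were looked up as sums of FPKM per library. Over 17 neural genes the sum was 25.4 to 27.8 in 2i and 70.7 to 75.1 in ETR-tKO, and 4 of 12 tested rose. Most of the sum lay in *Tubb3*, with means of 20.2 FPKM in 2i and 57.7 FPKM in ETR-tKO. Of the 17 genes, 12 were below 1 FPKM in both groups. *Tubb3*, neuronal tubulin, went from 881, 890.1 and 814 to 2765, 2880 and 3038, *Nes* from 492, 479.9 and 538 to 1505, 1615 and 1544 and *Pax6* from 151, 158 and 172 to 718, 721 and 702. *Sox1*, which defines the neural lineage, was under 1 FPKM in both groups and so not called. Its counts still went from 7.07, 7.89 and 2.06 to 31, 84.9 and 50.2 (log2 fold change of 3.35, adjusted p = 8.92e-07). Its mean was 0.42 FPKM in ETR-tKO, 1.13 FPKM at N16h and 0.41 FPKM at N72h. Over 17 mesendoderm genes the sum was 11.9 to 14.4 in 2i and 9.73 to 13.7 in ETR-tKO. *Eomes* rose from 196, 293 and 269 to 599.7, 1266 and 1083, whereas *T* and *Wnt3* fell and *Mixl1* and *Foxa2* were under 1 FPKM in both groups.

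Extraembryonic and fibroblast markers were summed in the same way. Over 18 primitive endoderm genes the sum rose from 46.4 to 55.6 FPKM in 2i to 80.7 to 88.9 in ETR-tKO, and 3 of 16 tested rose and 1 fell. The rise lay in *Col4a1* and *Col4a2*, while *Gata6*, *Gata4*, *Sox7* and *Sox17* were each under 1 FPKM in both groups. *Sox7* still gave 83.8, 72 and 72.4 in ETR-tKO against 1 read in all of 2i (ratio 167, 95% counting interval 29.7 to 6602). Over 17 trophectoderm genes the sum was 80.3 to 82.4 in 2i and 72.8 to 77.5 in ETR-tKO, with 4 higher and 3 lower calls among 14 and with *Elf5* and *Gata3* under 1 FPKM. Over 14 fibroblast and feeder genes it was 2.996 to 5.297 in 2i and 5.89 to 7.88 in ETR-tKO, with *Col1a1* and *Col3a1* under 1 FPKM. *Thy1*, also on that list, rose by 0.99 with spike-ins but was not called with TMM (adjusted p = 0.0593) or without library 3 or 13. The part of other cell types in the results was not tested.

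Genes of the basement membrane changed at a few members. *Col4a1* gave 141, 147 and 108 in 2i and 4095, 5264 and 5053 in ETR-tKO (log2 fold change of 5.202, SE 0.67, adjusted p = 4.08e-08), and *Col4a2*, its partner in the type IV collagen trimer and its neighbour in the genome, gave 82.5, 64.4 and 45.2 and 1309, 1983 and 1733 (log2 fold change of 4.78, SE 0.68, adjusted p = 2.81e-07). *Hspg2* (perlecan) and *Col18a1* rose by 1.26 and 0.96. *Lama1* fell from 1482, 1433 and 1793 to 480.1, 505 and 511 (log2 fold change of −1.66, SE 0.48, adjusted p = 0.00527), while *Lamb1* and *Fn1* were not called. In all 7 of 22 rose and 1 fell (5 and 1 on both scales, 5 and 3 with TMM). *Col4a1* varied widely among other cultures of the series, with 3645 ± 3715 in Rbpj-KO cells in 2i and 758 ± 635 in another set of RGd2 libraries in 2i (SD, n = 3 each), cells moved to 2i only shortly before the assay. Of 36 genes for other collagens and matrix, 4 rose and 3 fell.

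Integrins, the receptors of that matrix, rose in 7 of 21 cases and fell in 1 (6 and 1 on both scales). *Itga1* gave 61.3, 59.2 and 86.3 in 2i and 2013, 1987 and 2073 in ETR-tKO (log2 fold change of 4.84, SE 0.18, adjusted p = 2.99e-23), and *Itga9* gave 229, 251 and 179.9 and 1666, 2753 and 2492 (log2 fold change of 3.398, SE 0.16, adjusted p = 3.92e-20). *Itga3*, *Itga6* and *Itga5*, which form receptors for laminin and fibronectin, rose by 2.33, 1.25 and 1.54. The common β subunit gene *Itgb1* gave 2529, 2718 and 2590 and 2328, 2624 and 2572 and was not called with spike-ins but was lower with TMM.

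Genes of focal adhesions and the actin cytoskeleton rose more often than they fell, as did called genes in general with spike-ins. Of 52 tested 30 rose and 3 fell (27 and 3 on both scales, 27 and 7 with TMM). The median log2 fold change was 0.49, 0.22 above that of all genes. *Tmsb4x*, which sequesters actin monomers, went from 306, 349.7 and 237 to 1553, 2116 and 1943 (log2 fold change of 2.66, SE 0.14, adjusted p = 4.72e-18), and *Tagln2* from 2064, 2261 and 1769 to 6560, 9141 and 8099 (log2 fold change of 1.97, SE 0.12, adjusted p = 1.13e-16). *Tns1* (tensin) went from 91.9, 109 and 81.2 to 986, 1069 and 937 (log2 fold change of 3.41, SE 0.24, adjusted p = 1.17e-14), and *S100a10* and *Tns3* rose by 2.34 and 1.495. The groups were separate for all of these.

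Guidance and adhesion genes changed in both directions. Of 38 guidance cues and receptors 14 rose and 5 fell (12 and 5 on both scales), and ephrin genes were on either side, *Efnb2* rising from 188, 208 and 148 to 924, 947 and 946 and *Efnb1* falling from 445, 460.2 and 454 to 135, 113 and 112. *Slit3* and *Sema3e* rose by 2.52 and 2.69, whereas *Ephb4* and *Unc5b* fell, with log2 fold changes of −1.21 and −1.43. Of 37 cadherins and junction genes 14 rose and 4 fell (11 and 4 on both scales, 11 and 7 with TMM). *Pkp3* went from 37.7, 40.8 and 49.3 to 257, 287 and 248 and *Pcdh8* rose by 2.49. E-cadherin, *Cdh1*, gave 6860, 8258 and 7013 and 7371, 6364 and 6238 and N-cadherin, *Cdh2*, gave 169.7, 263 and 200.4 and 312, 311 and 248, neither called with spike-ins, and *Cdh1* was lower with TMM. *Epcam* rose from 869.6, 922 and 664 to 2172, 1467 and 1375. Keratins and other epithelial genes rose in 9 of 18 cases and fell in 2 (8 and 2 on both scales), *Krt8* from 144, 125 and 129.5 to 312, 429 and 383 and *Krt18* from 111, 134 and 81.2 to 241, 291 and 227.

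On a list of YAP targets and Hippo pathway genes, 14 of 26 rose and 2 fell. *Nt5e* gave 30.6, 35.5 and 49.3 in 2i and 1283, 2009 and 1819 in ETR-tKO (log2 fold change of 5.398, SE 0.22, adjusted p = 4.14e-22). The inhibitors *Ptpn14* and *Lats2* rose from 931, 1099 and 807 to 5394, 6546 and 6420 (log2 fold change of 2.69, SE 0.13, adjusted p = 3.26e-20) and from 70.7, 145 and 87.4 to 689.5, 776 and 759 (log2 fold change of 2.84, SE 0.18, adjusted p = 4.08e-16), and *Amotl1*, another, fell by 1.19. *Yap1* itself rose by 0.52 ± 0.099.

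Lysosomal genes fell more often than they rose. Of 64 tested 25 fell and 12 rose (25 and 10 on both scales, 37 and 10 with TMM). The median log2 fold change was −0.21, a distance of −0.48 from that of all genes. The proteases *Ctsl* and *Ctsc* fell, *Ctsl* from 4376, 4811 and 4305 to 1358, 1649 and 1430 (log2 fold change of −1.61, SE 0.16, adjusted p = 7.73e-11) and *Ctsc* from 302, 277 and 188 to 61.3, 47.3 and 57.3 (log2 fold change of −2.17, SE 0.21, adjusted p = 6.62e-11). *Hexa*, a subunit of β-hexosaminidase, went from 2194, 2376 and 2368 to 473, 501 and 497 (log2 fold change of −2.24, SE 0.12, adjusted p = 5.88e-19). *Npc2*, which carries cholesterol out of the lysosome, fell by 1.33, and the membrane protein gene *Lamp2* fell by 1.18. *Tfeb*, a transcription factor that drives lysosomal genes, moved the other way, from 240.4, 218 and 276 to 654, 569.6 and 551 (log2 fold change of 1.27, SE 0.16, adjusted p = 4.01e-08), and *Sort1* rose by 1.23.

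In glycosphingolipid synthesis the calls divided, with 5 genes of 20 higher and 6 lower (4 and 6 on both scales). *A4galt*, which makes the globo series, fell from 1346, 1551 and 1461 to 404, 431 and 401 (log2 fold change of −1.82, SE 0.15, adjusted p = 1.38e-12), and *Ugcg*, which makes the common precursor glucosylceramide, fell by 0.73. *St8sia1*, which makes the ganglioside GD3, rose from 222, 206 and 168 to 1009, 1146 and 918 (log2 fold change of 2.38, SE 0.17, adjusted p = 1.91e-14).

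Among 31 genes of glycolysis and the pentose phosphate pathway, 11 fell and 6 rose (11 and 4 on both scales, 18 and 4 with TMM). *Ldha*, which makes lactate, gave 17460, 18390 and 16230 in 2i and 6810, 5886 and 5821 in ETR-tKO (log2 fold change of −1.49, SE 0.13, adjusted p = 2.40e-12), and *Pgk1* gave 15900, 16740 and 15690 and 7884, 9012 and 8516 (log2 fold change of −0.93, SE 0.12, adjusted p = 2.91e-08). *Aldoc*, *Tpi1* and *Pfkfb3* also fell, with log2 fold changes of −1.44, −0.77 and −1.23. The glucose transporter gene *Slc2a1* rose from 4859, 4605 and 4447 to 7825, 8380 and 8039, and *G6pdx*, *Pgd* and *Pgls* rose by 0.48, 0.53 and 0.45, *Pgls* with spike-ins but not TMM. *Pkm* was not called with spike-ins and was lower with TMM.

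Nuclear genes of oxidative phosphorylation moved little on the spike-in scale, with 2 of 42 higher and 6 lower, but 25 were lower with TMM, so that the direction of this group rests on the scale. *Tfam*, needed to transcribe the mitochondrial genome, rose from 1119, 1241 and 1150 to 1953, 1855 and 1915 (log2 fold change of 0.704, SE 0.11, adjusted p = 2.38e-06). Of the 13 protein genes of the mitochondrial genome 5 rose, 3 of them on both scales, with *mt-Cytb* going from 18050, 18240 and 19560 to 21570, 29100 and 31130 (log2 fold change of 0.55, SE 0.11, adjusted p = 1.33e-04). In fatty acid oxidation 7 of 30 rose and 8 fell (5 and 8 on both scales, 5 and 14 with TMM). *Cpt1a*, the entry step into mitochondria, fell from 2003, 2444 and 2230 to 650.1, 773 and 879 (log2 fold change of −1.54, SE 0.14, adjusted p = 8.14e-12). *Aldh1b1* fell by 1.75 and *Ehhadh* fell by 1.603.

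Lipid and amino acid synthesis gave small changes. Of 33 genes for cholesterol and fatty acid synthesis 5 rose and 9 fell with spike-ins, against 1 and 20 with TMM. Of 50 genes for amino acid and one-carbon metabolism 15 rose and 10 fell (8 and 10 on both scales, 8 and 23 with TMM). *Ckb*, brain creatine kinase, fell from 13510, 13420 and 14630 to 5340, 5887 and 5816 (log2 fold change of −1.29, SE 0.11, adjusted p = 4.70e-12), *Oat* fell by 1.12 and *Phgdh*, the first step of serine synthesis, fell by 0.84, while *Slc7a3*, a transporter of arginine, rose by 0.95. Of 31 genes of the ATF4 and unfolded protein responses 12 rose and 2 fell with spike-ins, 5 and 2 on both scales, and TMM called 10 lower. *Xbp1* rose by 1.11 and *Hspa5* by 0.51.

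Known p53 targets rose in 20 of 26 cases and fell in 1 (18 and 1 on both scales), with a median log2 fold change of 0.797, 0.53 above that of all genes. *Perp*, a membrane protein of p53-driven apoptosis, gave 68.3, 84.1 and 86.3 in 2i and 1685, 929.6 and 892 in ETR-tKO (log2 fold change of 3.85, SE 0.202, adjusted p = 1.20e-18). *Pmaip1* (Noxa) and *Bbc3* (Puma), activators of cell death, gave 75.4, 116 and 86.3 and 1763, 1798 and 1714 (log2 fold change of 4.22, SE 0.18, adjusted p = 3.94e-21) and 339, 355 and 318 and 1186, 1263 and 1238 (log2 fold change of 1.87, SE 0.20, adjusted p = 5.83e-10). *Mdm2*, *Ccng1* and *Plk2* rose by 0.91, 0.997 and 1.43. *Cdkn1a*, the p21 gene and a standard p53 target, went the other way, from 1322, 1632 and 1508 to 363, 357 and 381 (log2 fold change of −2.02, SE 0.15, adjusted p = 4.15e-14), and *Trp53* itself gave 7642, 8226 and 7266 and 7508, 8559 and 8364 with no call.

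Cell cycle genes rose in 32 of 50 cases and fell in 5 (27 and 5 on both scales, 27 and 11 with TMM). The median log2 fold change was 0.45, 0.18 above that of all genes. Mitotic genes moved modestly, with *Cdc20* going from 5689, 6451 and 5768 to 9339, 10680 and 10270 and *Ccnb2* and *Plk1* up by 0.70 and 0.81. *Rb1* rose from 226, 339 and 319.7 to 689.5, 909 and 847 (log2 fold change of 1.45, SE 0.15, adjusted p = 1.45e-10). *Cdk6* fell by 1.15 and *Cdkn2a*, the locus of p16 and p19ARF, fell by 1.05, in addition to *Cdkn1a*.

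Of 20 genes of DNA methylation 10 rose and 1 fell (8 and 1 on both scales), with a median log2 fold change of 0.305, 0.03 above that of all genes, and TMM called 4 lower. Those that rose included genes that write methylation and genes that oxidise it. *Dnmt3l*, the cofactor of the de novo enzymes, gave 2305, 2484 and 1410 in 2i and 8981, 11300 and 10650 in ETR-tKO (log2 fold change of 2.32, SE 0.15, adjusted p = 4.27e-16). *Dnmt3b* gave 2420, 2548 and 2321 and 8915, 6491 and 6435 (log2 fold change of 1.58, SE 0.13, adjusted p = 3.44e-13), and *Dnmt3a* gave 2418, 3003 and 2394 and 6584, 5723 and 5641 (log2 fold change of 1.199, SE 0.12, adjusted p = 2.91e-10). *Tet1*, *Tet2* and *Tet3* rose by 0.68, 1.05 and 1.27. *Dnmt1* and *Uhrf1*, which maintain methylation, were not called.

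Imprinted genes rose in 14 of 35 cases and fell in 1. *Peg10* gave 1930, 1933 and 2125 in 2i and 16130, 38440 and 36220 in ETR-tKO (log2 fold change of 3.92, SE 0.27, adjusted p = 6.34e-15), and its neighbour *Sgce* gave 127, 166 and 172 and 399, 891 and 779 (log2 fold change of 2.12, SE 0.25, adjusted p = 5.73e-09). *Nnat* gave 16.5, 15.8 and 17.5 and 206, 243 and 224 (log2 fold change of 3.74, SE 0.37, adjusted p = 1.06e-10) and *Snrpn* gave 488, 632 and 562 and 1933, 2487 and 2510 (log2 fold change of 2.03, SE 0.22, adjusted p = 1.14e-09). *Meg3*, *Rian* and *Mirg*, noncoding RNAs of one imprinted cluster, rose by 1.31, 1.36 and 1.44. *Igf2r* fell by 1.18, and *H19* and *Igf2* were not called.

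Germ cell genes gave 7 higher and 7 lower calls among 22 tested (5 and 7 on both scales, 5 and 9 with TMM). *Rhox5*, an X-linked homeobox gene, gave 445, 508 and 636 in 2i and 7855, 6265 and 6839 in ETR-tKO (log2 fold change of 3.71, SE 0.17, adjusted p = 1.11e-20), and *Dmrtb1* gave 14.1, 30.2 and 17.5 and 195, 121 and 122 (log2 fold change of 2.79, SE 0.32, adjusted p = 2.41e-09). *Nanos3* and *Dazl*, which act in primordial germ cells, fell, with log2 fold changes of −1.85 and −0.79. The median log2 fold change of the list was −0.33, a distance of −0.598 from that of all genes, whereas its summed FPKM, in which abundant members such as *Rhox5* weigh most, went from 268 to 301 in 2i to 588 to 742 in ETR-tKO.

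Among the remaining lists, Polycomb and other chromatin genes rose in 16 of 40 cases and fell in 5 (9 and 5 on both scales, 9 and 9 with TMM). *Jarid2*, a partner of PRC2, went from 4737, 5489 and 4503 to 8828, 10560 and 10370 and *Ezh1* from 1046, 1032 and 1092 to 546, 579 and 545. Of 30 interferon response genes 4 rose and 3 fell, *Bst2* from 28.3, 19.7 and 28.8 to 232, 221 and 216 and *Ddx58* from 730.5, 937 and 810 to 2103, 2536 and 2674, whereas *B2m* fell by 1.18. Of 35 genes for hematopoietic and cytokine receptors and their ligands 4 rose and 6 fell, and the pair of *Kitl*, the stem cell factor, and its receptor *Kit* moved apart, *Kitl* from 11.8, 35.5 and 33.9 to 255, 342 and 291 and *Kit* from 1777, 1981 and 2208 to 957, 898 and 814.

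ETR-tKO was next compared with RGd2 after 72 h in N2B27, cells in the same medium without the inhibitors. This comparison and the one with 2i share the 3 ETR-tKO libraries. It gave 7290 called genes, 38.6% of those tested, 4381 higher and 2909 lower in ETR-tKO. Of the 18 naive transcription factors 17 were higher in ETR-tKO than at N72h. *Nanog* averaged 21430 in ETR-tKO and 1697 at N72h (log2 fold change 3.66, SE 0.11), and *Esrrb* averaged 15860 and 832 (log2 fold change 4.25, SE 0.13). Of 22 formative genes 16 were lower in ETR-tKO than at N72h and 4 higher. *Dnmt3b* averaged 7281 against 53800, and *Spry4* averaged 2570 against 593.

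ER-dKO cells, in which *Etv5* and *Rbpj* but not *Tcf7l1* were targeted, had been passaged 5 times in CH and were the mutant culture nearest to ETR-tKO. Here too the ETR-tKO libraries are shared, and both *Tcf7l1* and the inhibitor differ. Called genes numbered 2851, 15.1% of those tested, 1700 higher and 1151 lower in ETR-tKO with spike-ins and 1878 and 2394 with TMM. Of the ERK readouts, *Spry4* averaged 2570 in ETR-tKO and 2347 in ER-dKO (log2 fold change 0.13, SE 0.12, not called), while *Egr1* averaged 543 and 111 (log2 fold change 2.299, SE 0.24) and was called higher. Of 26 Wnt targets 12 were lower in ETR-tKO and 2 higher, with *Axin2* at 639 and 2846 (log2 fold change −2.16, SE 0.14), but *Lef1*, at 64.2 and 97.1, was low in both. *Lefty2* averaged 1389 and 12340. *Pou3f1* was called higher in ETR-tKO, with 159 against 7.67, and *Col4a1* likewise, with 4804 against 535. The *Rhox5* mean was 2363 in ER-dKO, below its ETR-tKO mean of 6986.

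The 3 ETR-tKO clones differed by less than 2-fold in most genes, and library 13 was more often apart than libraries 14 and 15. The chi-square statistic per gene between libraries, which is 1 for counting noise alone, was 24.9 for libraries 13 and 14, 29.6 for 13 and 15 and 5.19 for 14 and 15, against 3.39 to 6.59 among the 2i libraries. It grows with depth, which was higher in ETR-tKO. Of 10559 genes with a mean of at least 100 normalised counts, 186 spanned more than a 2-fold range over the 3 clones, and in 168 of these library 13 was the one apart. In 2i 104 genes spanned such a range. No 2 libraries of either group agreed within counting noise.

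The genes with the widest range among the clones included some of those that changed. *Efhc2* gave 145, 1054 and 725 in libraries 13, 14 and 15 against 14.1, 14.5 and 7.2 in 2i, and *Xaf1*, a gene of apoptosis, gave 170, 982 and 881 against 42.4, 61.8 and 42.1. Both were called higher, with clone 13 the lowest. *Plagl1*, an imprinted gene, gave 392, 2334 and 2825, so that clone 13 lay below and clones 14 and 15 within the 2i values of 1784, 2008 and 2980. *Ccnd2* was high in clone 13 alone, at 356, 61.3 and 93.1. *CT010467.1* was high in clone 15, at 27.9, 47.3 and 312, and *Xlr3a*, which has close copies on the X chromosome, was highest in clone 14, at 26.1, 118 and 15.9. *1700013H16Rik* varied in both groups, at 37.6, 236 and 102 in ETR-tKO and 198, 210.4 and 17.5 in 2i. The remaining *Sp5*, *T* and *Mogat2* were low in every clone, and their wide range on the log scale comes from few reads, *Mogat2* giving 31.6, 5.37 and 14.3 against 231, 233 and 204 in 2i. The targeted *Tcf7l1* was lowest and *Etv5* highest in clone 13.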

How the data were processed

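RNA was measured by strand-specific paired-end RNA-seq after rRNA depletion. The authors deposited raw counts per gene, made per the labels and methods with Trim Galore, TopHat2 and featureCounts on mm10 with ERCC spike-ins and Gencode M14 genes, and per-gene lengths. Of 51826 genes, 193 without a symbol held 0.0259% of counts and stayed in. Groups follow the sample labels.

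Libraries were scaled by the 52 of 92 spike-ins above 0 in each of them (median of ratios). All 32 libraries entered 1 model in edgeR 4.0.16 (R 4.3.3) with filterByExpr, which kept 18892 genes, the quasi-likelihood test (two-sided) and Benjamini-Hochberg adjustment over all of them. A gene was called at an adjusted p under 0.05 and a mean of at least 1 FPKM in either group, where FPKM was computed from the counts, the deposited lengths and the gene totals. The SE is the log2 fold change divided by the square root of the test's F. The script was tested on simulated counts with known changes. Depth ran from 9255795 to 41560347 counts in the 6 libraries, and ratios of groups with 1 to 3 reads carry exact 95% binomial intervals. Alternatives were TMM, other size factors and filters, DESeq2 1.42.0, fits to the compared libraries alone, fold minima and leaving out each library.

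The comparison and the gene lists were chosen with earlier results of these data known. Genes were named by rule: the targeted genes, the 12 largest called changes per direction, up to 6 called members per list with the lowest p, members named for their role, and the 10 genes of widest range among the clones. Some genes that this rule names are not reported here. The sequences come from the study's guide table, RefSeq (promoters, GRCm38.p6) and Gencode M21.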

Additional observations from a re-analysis of the deposited data

How the results depend on the processing

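The direction of every called gene named above held under each of the 7 alternative fits and with each library left out. Calls were lost for *Nanog*, *Pou5f1*, *Pgls*, *Thy1* and *Ccnd1* with TMM and with median of ratios over genes, which also lost *Zbed3*, for *Rbpj* in DESeq2 and without library 2 or 13, for *Ccnd1* without library 3, for *Thy1* without library 3 or 13 and for *Zbed3* without library 1. Calls were gained, as lower, for *Tfcp2l1*, *Cdh1*, *Pkm*, *Itgb1*, *Id4* and *Ier2* with TMM and with median of ratios over genes, for *Id4* also in DESeq2, with a stricter count filter and without library 14 or 15. Calls as higher were gained for *Cdh2* and *Dnmt1* in fits to the compared libraries alone, for *Dnmt1*, *Uhrf1*, *Fn1*, *Id2*, *Il6st* and *Stat3* without library 13, for *Cdh2* and *Uhrf1* without library 2, for *Cdh2* without library 15 and for *Fgf5* without library 14 or 15. The number of genes called higher was 2913 with size factors taken as median of ratios over genes and 2995 with TMM, and the number called lower was 2977 and 2773, so that the excess of higher over lower calls rests on the spike-in scale. Requiring a fold change of at least 1.5 left 2346 genes higher and 641 lower, and one of at least 2 left 1207 and 352. The same minima left 4691 and 2810 genes against RGd2 N72h and 1512 and 722 against ER-dKO. With one library left out, 3597 to 4549 genes were higher and 884 to 1072 lower. Scaling by summed spike-in reads gave 4380 and 1078 and DESeq2 gave 4557 and 1156. The median log2 fold change changed sign in 10 of 49 lists with TMM and in none with summed spike-in reads. No paired analysis was possible because library numbers are unique to a library and none is shared between the groups. Depth limits the genes with few reads in 2i, where libraries were shallower.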

Other observations

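Single mutants collected in 2i give further levels of several of these genes. By the study's methods such lines were grown in CH with LIF, without the MEK inhibitor, and moved to 2i only shortly before the assay, so these are not steady levels in 2i. The values below are means ± SD (n = 3 each) for Rbpj-KO and Etv5-KO in 2i beside RGd2 libraries of that experiment in 2i, which are a separate group from 2i-p5, and no test is given. *Lef1* was at 1503 ± 278 in RGd2, 42.9 ± 6.45 in Rbpj-KO and 84.3 ± 21.4 in Etv5-KO, against an ETR-tKO mean of 64.2. *Zscan4c* was at 282 ± 139.8, 6.85 ± 2.98 and 14.7 ± 6.38 in the same order. Both genes were low in each single mutant after this short exposure. *Tns1* averaged 1098 ± 141 in Rbpj-KO and 958 ± 101 in Etv5-KO, near the ETR-tKO mean of 998, but the RGd2 libraries beside them spread widely, at 280.2 ± 189.

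Other genes were high in one single mutant. *Nrp2* averaged 558 ± 116 in RGd2, 3001 ± 222 in Rbpj-KO and 724 ± 39.2 in Etv5-KO, with an ETR-tKO mean of 4306. *Perp* gave 59.2 ± 12.1, 279 ± 41.2 and 64.2 ± 8, and *Nt5e* gave 141 ± 52, 230.5 ± 14 and 544 ± 84.2. The ETR-tKO means were 1169 for *Perp* and 1703 for *Nt5e*, above both single mutants. *Itga1* stayed low in both, at 42.5 ± 19.5 and 27.8 ± 2.27, against 2024 in ETR-tKO, and *Slc18a3* was at 0.28 ± 0.485 and 1.29 ± 1.08.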
